A study of Mus musculus with 6 samples.

Results

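Basal transcript levels of 10 activity-regulated genes were examined in the adult hippocampus with and without CBP, the lysine acetyltransferase encoded by Crebbp. The genes were the 4 members of the EGR family (Egr1, Egr2, Egr3 and Egr4), the 3 members of the NR4A family (Nr4a1, Nr4a2 and Nr4a3), and Npas4, Arc and Ier2. They were chosen by name as immediate early genes (IEGs), not by a threshold on their values, and make up 10 of the 55471 genes in the count table. Total RNA of hippocampi was sequenced in 6 libraries, 3 labelled Control and 3 labelled CBP-ifKO. All mice were C57BL/6, 3 to 6 months of age, and received tamoxifen in corn oil by 5 intragastric doses on alternate days. CBP-ifKOs carried floxed Crebbp alleles and the Camk2a_creERT2 transgene, a tamoxifen-inducible Cre recombinase driven by the Camk2a promoter, which is active in excitatory neurons of the forebrain. Per the protocol the Control mice were littermates that lacked the transgene, although the description of the Control samples names it too. The transgene marks the CBP-ifKO group alone by that protocol, so its presence and the loss of CBP cannot be told apart. Per the study's methods, recombined alleles still yield a truncated CBP, and in the standard-cage experiment each sample was RNA pooled from 3 females. The labels give neither sex nor pooling, and p-values measure only the spread between these samples.

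IEGs are transcribed within minutes of synaptic activity, without new protein synthesis, by factors already bound in the nucleus such as CREB and SRF. CBP is a coactivator that phosphorylated CREB recruits. The EGR proteins are zinc-finger factors, the NR4A proteins are orphan nuclear receptors, and NPAS4 is a bHLH-PAS factor of neurons that responds to calcium entry. ARC is a postsynaptic protein involved in the endocytosis of AMPA receptors, and IER2 is a nuclear protein. At rest the transcripts are low in most hippocampal neurons and high in a sparse set of recently active cells. In bulk tissue, fewer cells of a type and less RNA per cell cannot be told apart.

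The promoters of the 3 NR4A genes are shown because, of the genes matched, they held the most copies of the core letters of the element that CREB recognises, and that of Npas4 is shown beside them as a gene outside the family. The windows span 250 bases before and 50 after a transcript start in RefSeq, build GRCm38.p6, written 5′ to 3′ on the gene's strand. They lie at chr15:101266596-101266895 on the + strand for Nr4a1, chr2:57123954-57124253 on the - strand for Nr4a2, chr4:48045055-48045354 on the + strand for Nr4a3 and chr19:4989922-4990221 on the - strand for Npas4. Capitals mark TGACG and its complement CGTCA.
Nr4a1: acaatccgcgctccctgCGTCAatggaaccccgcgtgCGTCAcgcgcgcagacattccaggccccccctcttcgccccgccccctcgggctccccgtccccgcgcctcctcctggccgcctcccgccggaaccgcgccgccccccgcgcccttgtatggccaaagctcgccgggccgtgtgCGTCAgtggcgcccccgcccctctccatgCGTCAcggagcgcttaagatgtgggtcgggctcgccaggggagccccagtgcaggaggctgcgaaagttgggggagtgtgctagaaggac
Nr4a2: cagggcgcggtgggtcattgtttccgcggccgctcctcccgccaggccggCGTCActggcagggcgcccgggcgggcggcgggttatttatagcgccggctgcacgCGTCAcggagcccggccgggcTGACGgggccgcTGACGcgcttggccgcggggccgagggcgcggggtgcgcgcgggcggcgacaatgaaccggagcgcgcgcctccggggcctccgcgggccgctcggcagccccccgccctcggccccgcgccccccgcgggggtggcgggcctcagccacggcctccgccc
Nr4a3: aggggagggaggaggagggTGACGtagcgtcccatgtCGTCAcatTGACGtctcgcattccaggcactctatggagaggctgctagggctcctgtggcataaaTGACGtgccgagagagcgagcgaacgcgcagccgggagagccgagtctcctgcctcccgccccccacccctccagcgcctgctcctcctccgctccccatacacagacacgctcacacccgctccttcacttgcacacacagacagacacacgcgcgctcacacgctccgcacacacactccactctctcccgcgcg
Npas4: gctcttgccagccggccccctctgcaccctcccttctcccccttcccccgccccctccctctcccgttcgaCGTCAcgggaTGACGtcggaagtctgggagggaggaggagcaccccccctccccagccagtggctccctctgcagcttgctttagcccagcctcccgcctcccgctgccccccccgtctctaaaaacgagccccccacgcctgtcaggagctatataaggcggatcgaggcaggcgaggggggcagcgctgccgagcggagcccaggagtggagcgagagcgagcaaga
Each NR4A window held 4 of these letter runs and the Npas4 window 2. Among all 32851 promoter windows of 300 bases, 20.8% held at least 1, 5.01% at least 2 and 0.231% at least 4. RefSeq promoters were matched for 6 of the 10 genes. The Egr4 window held 2 runs, as many as that of Npas4, and the 5 windows of Egr2, each at another start, held 0 or 2. The full palindrome TGACGTCA was in none of the windows of these 6 genes, against 1.79% of all. A CArG box, the letters that SRF recognises, was in 4 of the 5 Egr2 windows, against 1.63% of all, but 3 of those 4 windows overlap almost wholly and are not separate stretches. The EGR letters GCGTGGGCG or GCGGGGGCG were found once, in Nr4a1, against 3.47% of all, and the NR4A letters AAAGGTCA in none, against 1.51%. These matches on either strand describe the sequence only.

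The libraries held 10199008 to 14950257 counts, and the 10 genes together 3044 to 3871 counts per library. Levels are CPM, the counts of a gene relative to the size of its library, after TMM scaling, a factor per library that offsets differences in composition. Fold changes are log2 of CBP-ifKO over Control. They were tested across 17981 genes with edgeR's quasi-likelihood test, at a Benjamini-Hochberg adjusted p under 0.05, and 1149 genes passed. Crebbp was at 208.6, 156.4 and 208.5 CPM in Controls 1 to 3 and at 108.6, 87.1 and 99.4 CPM in CBP-ifKOs 1 to 3. Esr1, part of which is in the recombinase, averaged 6.07 CPM in Controls and 66.7 CPM in CBP-ifKOs. Crebbp was lower and Esr1 higher in every CBP-ifKO library than in any Control. None of the 10 genes shares exon bases with another annotated gene.

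All 10 genes passed the filter on low counts, all 10 had a lower point estimate in CBP-ifKOs, and 1 passed the test, Nr4a2. That is 10% of the genes, beside 6.39% of all genes tested, so the share called was near the background. At an unadjusted p under 0.05 there were 4 (Egr3, Nr4a2, Nr4a3 and Npas4), beside 21.2% of all genes. In TMM-scaled CPM, every CBP-ifKO library lay below every Control library for Nr4a2 alone, whereas 13.9% of all genes were separated in that direction. The median log2 fold change of the 10 genes was -0.37, against -0.0033 over all genes tested. It was -0.20 after dependence on GC content and exon length had been fitted in each library and removed, with 7 of the 10 then lower, and -0.19 without Control replicate 2. With these trends removed, 2 of the 10 had every CBP-ifKO library below every Control, Nr4a2 and Egr2. Egr2 had only 9 to 19 counts per library. The share of all genes separated after this removal was not computed. For 7 genes the 95% interval of the fold change lay within 2-fold either way. The exceptions were Egr2, Egr4 and Npas4, all below 10 CPM. Ier2, also below 10 CPM, was among the 7 only narrowly, with a lower bound of -0.97 and the largest SE of the 10 genes (0.37). Leaving out the filter on low counts brought 5 of the 10 past the threshold, beside 4.31% of all 35043 genes then tested: Nr4a2, Egr3, Npas4, Arc and Nr4a1. Those 35043 include the genes of low count that the filter removes, so 4.31% is not a like background for these 5. Their SEs were smaller in that fit while their estimates hardly moved. Arc was at -0.31 (SE 0.08), against -0.32 (SE 0.15) with the filter. Without Control replicate 2, 3 of the 10 passed (Nr4a2, Egr3 and Nr4a3), beside 7.24% of all genes.

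**Figure D1:**
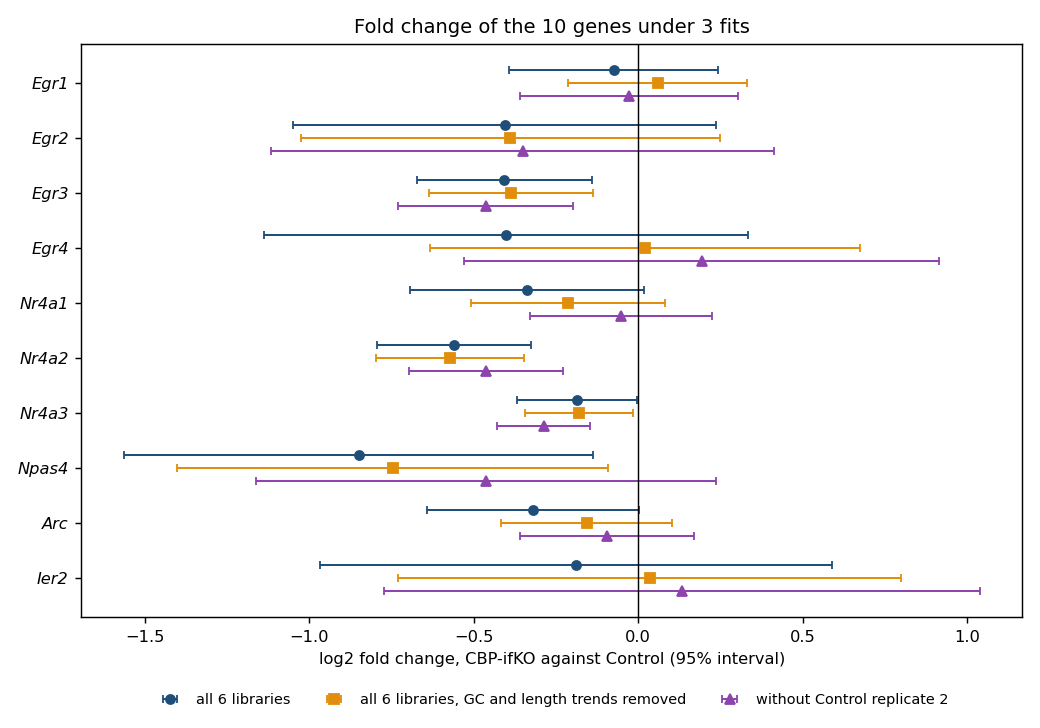
Log2 fold change of each gene, CBP-ifKO against Control, with its 95% interval, under 3 edgeR fits: all 6 libraries, the same with per-library GC and length trends removed, and without Control replicate 2. Nr4a2, Egr3 and Nr4a3 each stay below 0 with the whole interval in all 3 fits. The estimate of Egr4 moves from -0.40 to 0.02 and 0.19.

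Nr4a2, also called Nurr1, is the NR4A receptor best known for dopamine neurons and is induced by activity in the hippocampus. Nr4a2 (ENSMUSG00000026826, GRCm38 chromosome 2, 57106830 to 57124003, protein coding) was at 36.8, 45.3 and 39.7 CPM in Controls 1 to 3 and at 33.2, 24.6 and 25.6 CPM in CBP-ifKOs 1 to 3. All 3 CBP-ifKO libraries were below the lowest Control, with CBP-ifKO replicate 1 the nearest to it. The mean fell from 40.6 ± 4.35 to 27.8 ± 4.73 CPM (SD, n = 3), leaving 68.5% of it. On the log2 scale the change was -0.56 (SE 0.11, 95% interval -0.79 to -0.32, edgeR adjusted p = 0.00557). DESeq2 gave -0.55 (adjusted p = 7.03e-04), and removal of the GC and length trends gave -0.57 (edgeR adjusted p = 0.00389). The call was lost without CBP-ifKO replicate 2 (log2 fold change -0.47, edgeR adjusted p = 0.0559) and without CBP-ifKO replicate 3 (-0.50, edgeR adjusted p = 0.0521), and held without any of the other 4 libraries.

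Nr4a1, or Nur77, is induced by many stimuli in neurons and in immune cells. Nr4a1 (ENSMUSG00000023034, chromosome 15, 101254269 to 101274795) was at 19.6, 34.2 and 22.6 CPM in Controls and at 23.9, 16.7 and 20.7 CPM in CBP-ifKOs. Control replicate 2 stood high, the other Controls lay among the CBP-ifKO libraries, and the groups overlapped. The log2 fold change was -0.34 (95% interval -0.69 to 0.02, edgeR adjusted p = 0.261). Without Control replicate 2 it was -0.05 (95% interval -0.33 to 0.22), without CBP-ifKO replicate 2 it was -0.20, and with the GC and length trends removed it was -0.21 (edgeR adjusted p = 0.422).

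Nr4a3, or Nor1, had the highest level of the 3 receptors. Nr4a3 (ENSMUSG00000028341, chromosome 4, 48045153 to 48086447) was at 92.9, 74.0 and 96.2 CPM in Controls and at 81.0, 75.6 and 74.6 CPM in CBP-ifKOs. Here Control replicate 2 was the lowest library of all 6, and the other Controls were above every CBP-ifKO. The log2 fold change was -0.19 (95% interval -0.37 to -0.005, edgeR adjusted p = 0.222). Without Control replicate 2 it was -0.29 and passed the threshold (edgeR adjusted p = 0.0126), whereas without Control replicate 3 it was -0.11 (edgeR adjusted p = 0.610). It did not pass when any of the other 5 libraries was left out.

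**Figure D2:**
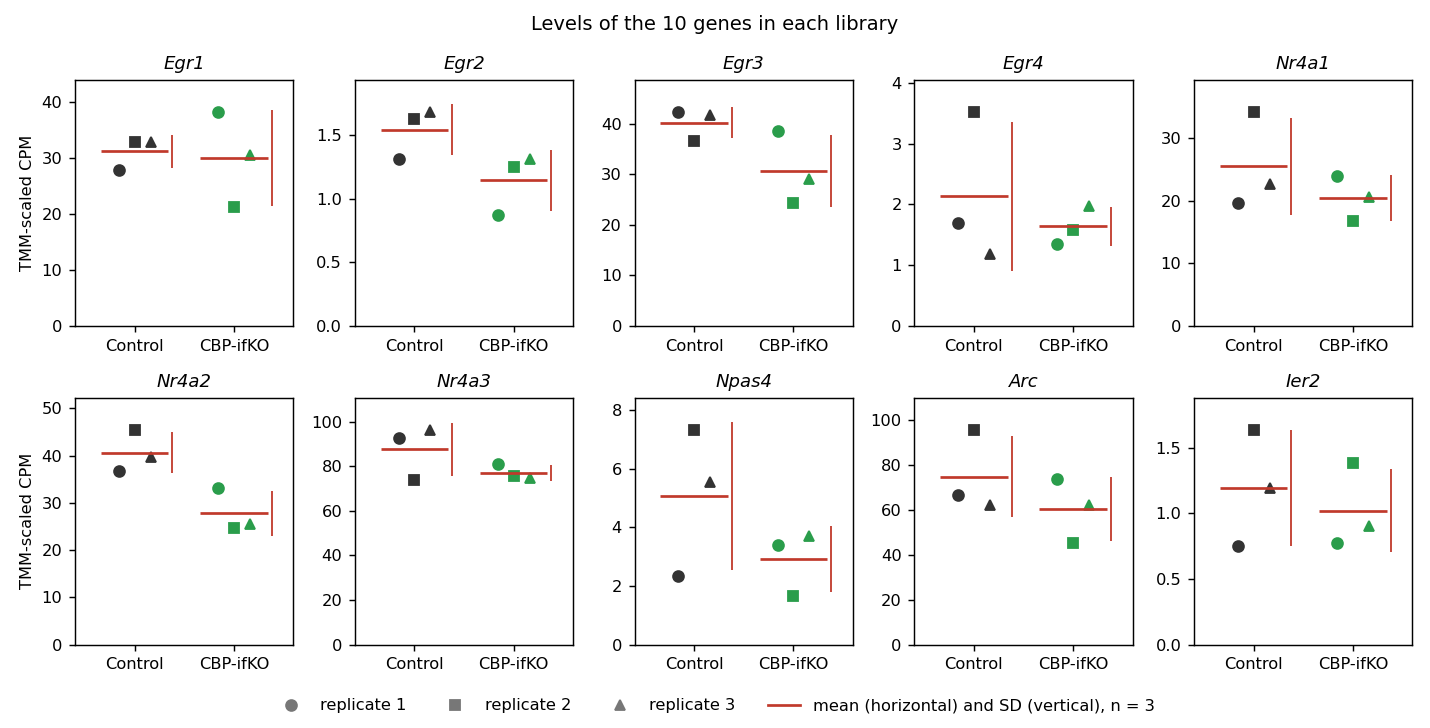
TMM-scaled CPM of the 10 genes in each library, with a separate axis from 0 for each gene; symbols give the replicate number, horizontal lines the group mean and vertical lines the SD (n = 3). In these values, without removal of GC and length trends, the groups separate for Nr4a2 alone, and Control replicate 2 is the highest library for 6 of the 10 genes.

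The EGR family was led by Egr3 and Egr1, and no member passed the test. Egr3, which acts downstream of strong synaptic activity and in muscle spindles, came nearest. Egr3 (ENSMUSG00000033730, chromosome 14, 70077203 to 70082614) was at 42.3, 36.7 and 41.7 CPM in Controls and at 38.5, 24.3 and 29.1 CPM in CBP-ifKOs. CBP-ifKO replicate 1 lay between the Controls, and the other CBP-ifKOs were below all of them. The means were 40.2 ± 3.09 and 30.6 ± 7.20 CPM (SD, n = 3), with a log2 fold change of -0.41 (SE 0.13, 95% interval -0.67 to -0.14, edgeR adjusted p = 0.0645). This stood just outside the threshold: it passed if Control replicate 2 (edgeR adjusted p = 0.0325) or CBP-ifKO replicate 1 (edgeR adjusted p = 0.00494) was left out and with limma-voom (adjusted p = 0.0488), but not with DESeq2 (adjusted p = 0.0547). It did not pass when any of the other 4 libraries was left out (edgeR adjusted p from 0.148 to 0.304), and without CBP-ifKO replicate 2 the log2 fold change was -0.25.

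Egr1, or Zif268, is a widely used marker of neuronal activity. Egr1 (ENSMUSG00000038418, chromosome 18, 34859823 to 34864984) was at 27.9, 32.9 and 32.8 CPM in Controls and at 38.3, 21.3 and 30.5 CPM in CBP-ifKOs. The CBP-ifKO libraries held both the highest and the lowest value of the 6, a spread of 1.80-fold against 1.18-fold among Controls. The means were 31.2 ± 2.87 and 30.0 ± 8.5 CPM (SD, n = 3). The log2 fold change was -0.07 (95% interval -0.39 to 0.24, edgeR adjusted p = 0.835), and its sign depended on the fit, with 0.06 after removal of the GC and length trends.

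Egr2, or Krox20, known for its role in myelination by Schwann cells, and Egr4 were scarce. Egr2 (ENSMUSG00000037868, chromosome 10, 67535475 to 67542188) was at 1.31, 1.63 and 1.69 CPM in Controls and at 0.87, 1.25 and 1.32 CPM in CBP-ifKOs, from 9 to 19 counts per library. Controls were higher on the whole, but the highest CBP-ifKO was level with the lowest Control. Its log2 fold change was -0.41 (95% interval -1.05 to 0.24, edgeR adjusted p = 0.489). Egr4 (ENSMUSG00000071341, chromosome 6, 85511121 to 85513589) was at 1.69, 3.52 and 1.19 CPM in Controls and at 1.36, 1.58 and 1.97 CPM in CBP-ifKOs. The high value was again Control replicate 2, and the lowest of all was also a Control. Its log2 fold change was -0.40 (95% interval -1.14 to 0.33, edgeR adjusted p = 0.562), and 0.19 without Control replicate 2. Egr4 had 12 to 41 counts per library and a biological coefficient of variation of 21.6%, above 99.1% of all genes tested. With the GC and length trends removed, the log2 fold change of Egr4 was 0.02. The 95% interval with all libraries was too wide to tell a change of -0.40 from none.

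Npas4 had the lowest ratio of means of the 10 genes and wide scatter. Npas4 (ENSMUSG00000045903, chromosome 19, 4984355 to 4990316) was at 2.35, 7.30 and 5.55 CPM in Controls, from 25, 85 and 56 counts, and at 3.39, 1.64 and 3.70 CPM in CBP-ifKOs, from 35, 25 and 45 counts. Controls 2 and 3 were above every CBP-ifKO, whereas Control replicate 1 was below 2 of the 3. The means were 5.07 ± 2.51 and 2.91 ± 1.11 CPM (SD, n = 3), the latter 57.5% of the former. The log2 fold change was -0.85 (SE 0.34, 95% interval -1.56 to -0.14, edgeR adjusted p = 0.153). It ran from -1.19 without Control replicate 1, which passed the threshold (edgeR adjusted p = 0.0136), to -0.46 without Control replicate 2 (edgeR adjusted p = 0.457), and was -0.51 without CBP-ifKO replicate 2. Replicates of Npas4 varied with a biological coefficient of variation of 24.9%, above 99.6% of all genes tested.

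Arc was the most abundant of the 10 genes per length of transcript. Arc (ENSMUSG00000022602, chromosome 15, 74669083 to 74672570) was at 66.5, 95.3 and 62.0 CPM in Controls and at 73.7, 45.3 and 62.2 CPM in CBP-ifKOs. Control replicate 2 was the highest and CBP-ifKO replicate 2 the lowest, with the other 4 libraries intermingled. The means were 74.6 ± 18.1 and 60.4 ± 14.3 CPM (SD, n = 3), with a log2 fold change of -0.32 (95% interval -0.64 to 0.003, edgeR adjusted p = 0.241). Without Control replicate 2 it was -0.10 (95% interval -0.36 to 0.17), and without CBP-ifKO replicate 2 it was -0.13. With all libraries and the GC and length trends removed it was -0.16 (edgeR adjusted p = 0.521). Ier2 (ENSMUSG00000053560, chromosome 8, 84661331 to 84662852) was at 0.75, 1.63 and 1.19 CPM in Controls and at 0.78, 1.38 and 0.91 CPM in CBP-ifKOs, from 8 to 21 counts. These values overlapped throughout, and the log2 fold change of -0.19 had a 95% interval of -0.97 to 0.59 (edgeR adjusted p = 0.829).

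Levels of different genes were compared as CPM per kb of annotated exon. In Controls, Arc came first at 24.4 ± 5.90 CPM per kb, then Nr4a3 at 14.7 ± 2.0 and Nr4a2 at 10.004 ± 1.07 (SD, n = 3). These 3 did not overlap between Control libraries. Egr3 at 9.13 ± 0.70, Nr4a1 at 7.26 ± 2.19 and Egr1 at 6.96 ± 0.64 CPM per kb followed. From Nr4a2 to Egr1 each gene overlapped the next in the order. A gap then separated Npas4 (1.23 ± 0.61), Egr4 (0.99 ± 0.57), Ier2 (0.78 ± 0.29) and Egr2 (0.45 ± 0.06 CPM per kb), and these 4 overlapped from one to the next as well. In CBP-ifKOs the mean of Arc was 19.8 ± 4.67, that of Nr4a3 12.9 ± 0.58 and that of Egr2 0.34 ± 0.07 CPM per kb, and the gap above Npas4 was still there.

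**Figure D3:**
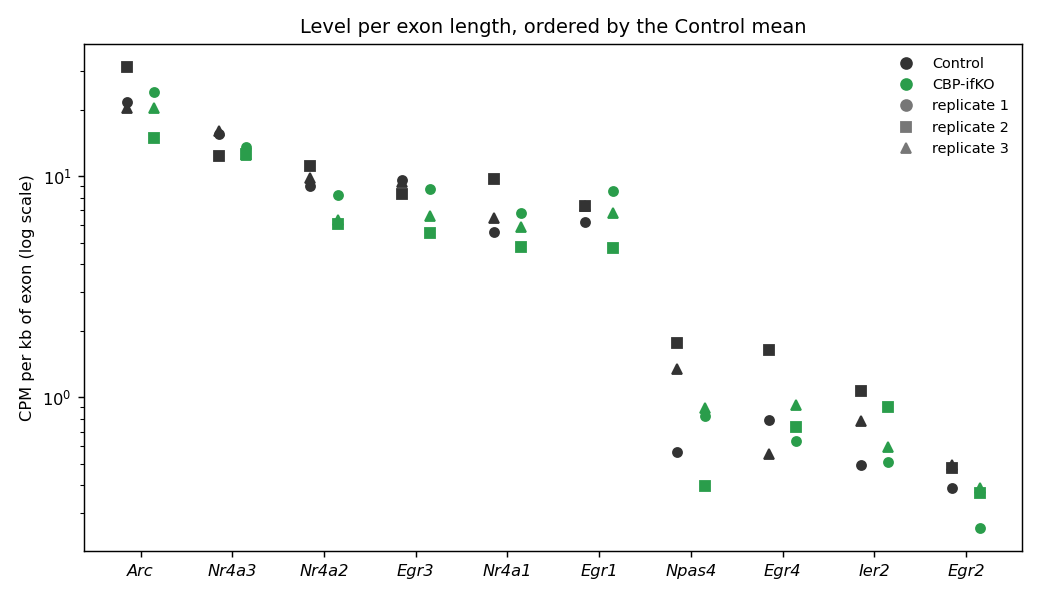
CPM per kb of exon for each gene in each library, on a log axis, ordered by the Control mean; colour gives the genotype and symbols the replicate number. A gap separates Arc, the NR4A genes, Egr3 and Egr1 from Npas4, Egr4, Ier2 and Egr2, with Control means of 6.96 CPM per kb for Egr1 and 1.23 CPM per kb for Npas4 on either side of it.

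Part of the variation between libraries was shared by many of the 10 genes, not by all, and ran within genotypes as well as between them. Control replicate 2 was the highest of the 6 libraries for 6 of the 10 genes, beside 20.7% of all genes tested, and CBP-ifKO replicate 2 the lowest for 6, beside 19.9% of all genes. With each gene centred on its own mean log2 CPM, the 10 genes averaged -0.07, 0.44 and 0.14 in Controls 1 to 3 and -0.06, -0.35 and -0.10 in CBP-ifKOs 1 to 3. The averages of Control replicate 1 and CBP-ifKO replicates 1 and 3 were close, although single genes differed between them, as Npas4 did at -0.57, -0.07 and 0.05. Control replicate 2 and CBP-ifKO replicate 2 lay farthest from the mean. In Control replicate 2, 9 of the 10 genes were above their own mean, and Nr4a3 was below it (-0.15). In CBP-ifKO replicate 2 only 1 was above, Ier2 (0.33). The root mean square difference of single genes from the average profile ran from 0.12 for Nr4a1 to 0.47 for Npas4. Within genotypes, the SD of Arc stood at percentile 100 among the 500 genes nearest to it in level, Npas4 and Nr4a1 at 99.6, Egr1 and Egr3 at 98.8, Nr4a2 at 94.6 and Egr2 at 15.4. GC content moved with this pattern. Across genes tested, the slope of centred log2 CPM per 10 points of GC was -0.03, 0.14 and 0.04 in Controls 1 to 3 and -0.03, -0.12 and -0.02 in CBP-ifKOs 1 to 3. The median GC content of the 10 genes was 56.3%, against 48.3% of genes tested. After removal of the GC and length trends the 10 genes averaged -0.07, 0.31 and 0.09 in Controls and -0.02, -0.24 and -0.07 in CBP-ifKOs, so that the range between libraries went from 0.784 to 0.545. CBP-ifKO replicate 2 was then still the lowest for 6 genes and Control replicate 2 the highest for 5. The part of GC content in the fold changes was not tested beyond this.

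**Figure D4:**
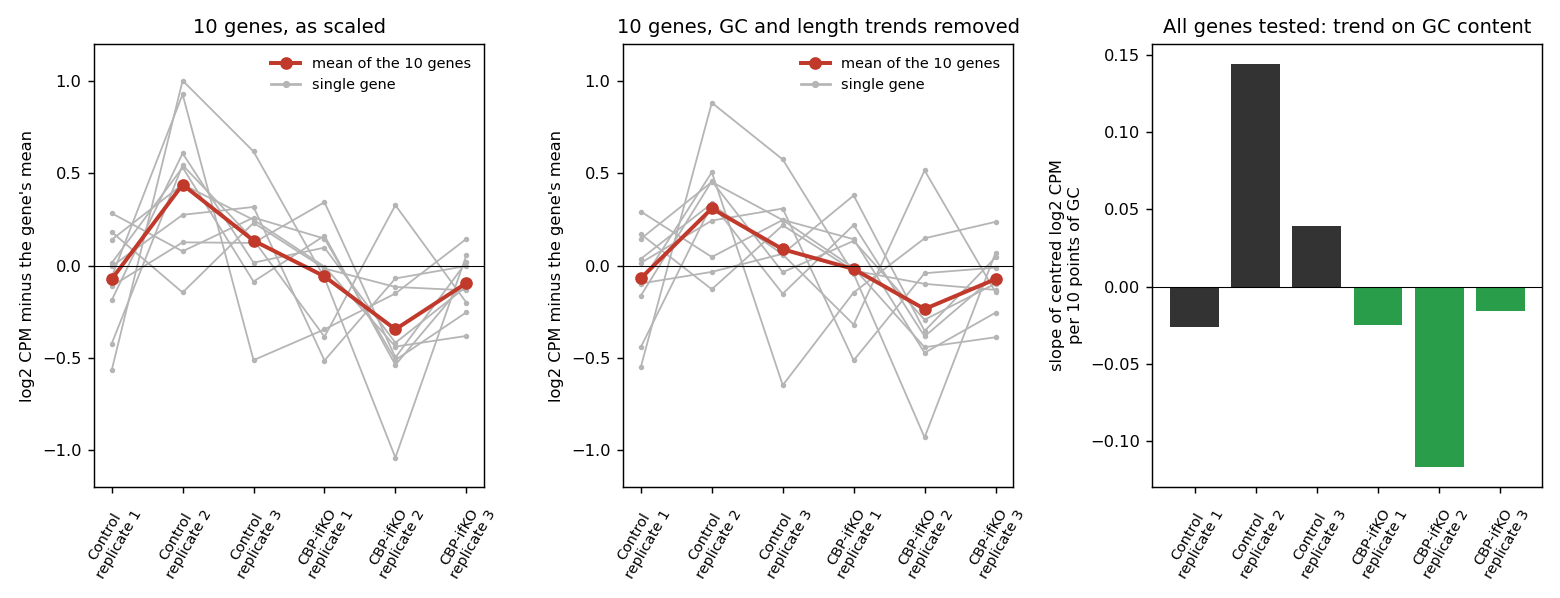
Log2 CPM of the 10 genes minus each gene's mean (thin lines, with their mean in red) in each of the 6 libraries, as scaled and with GC and length trends removed, beside the slope of all genes on GC content in each library (log2 per 10 points). The mean line peaks in Control replicate 2 (0.44, then 0.31) and is lowest in CBP-ifKO replicate 2 (-0.35, then -0.24), the libraries with the steepest slopes in opposite directions.

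By root mean square difference over the 6 libraries, Nr4a1 and Arc were each other's nearest gene among the 10 (0.11 on the log2 scale), as were Egr3 and Nr4a2 (0.18). Egr1 lay nearest to Arc and Nr4a3 nearest to Egr3, both at 0.21. Outside the 10 genes, the closest to their mean profile among 9841 compared were Celf3 (0.03), Ubald1 (0.04), Aatk, Gstm1 and Tmem132c (0.05 each). Of these 5, Aatk passed the test (log2 fold change -0.41, edgeR adjusted p = 0.0176). Ratios within a library do not depend on scaling. The counts of Nr4a2 per count of Nr4a3 were 0.396, 0.613 and 0.412 in Controls and 0.410, 0.325 and 0.343 in CBP-ifKOs. The CBP-ifKO ratios lay lower save for 1 between the Controls, a difference of -0.38 on the log2 scale (exact two-sided permutation test, p = 0.2). Egr1 per Egr3 was 0.659, 0.897 and 0.788 in Controls and 0.995, 0.876 and 1.05 in CBP-ifKOs, a difference of 0.32 (exact permutation test, p = 0.2). Over the 9 pairs within the EGR and NR4A families, none separated the groups, the smallest p that 3 against 3 allows is 0.1, and the smallest Benjamini-Hochberg adjusted p was 0.9.

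Among 40 other IEGs tested of 42 listed, 10 fell and 0 rose, which is 25%, with a median log2 fold change of -0.28. Of all 17981 genes tested, 6.39% passed, 897 of them lower and 252 higher. Without Control replicate 2, 6 of these IEGs passed, beside 7.24% of all genes, and their median was -0.19. The IEGs that fell with all 6 libraries included the AP-1 subunits Fosb, Fosl2 and Jun and the growth regulators Btg2, Klf10 and Gadd45g. The others were the phosphatases Dusp1 and Dusp4, the clock gene Per1 and the prostaglandin synthase Ptgs2. Jun, at 45.5 ± 4.28 CPM in Controls and 29.9 ± 2.46 CPM in CBP-ifKOs (SD, n = 3), had a log2 fold change of -0.60 (edgeR adjusted p = 7.07e-04). Fos, like Arc and Nr4a1, was highest in Control replicate 2, with 3.10, 7.90 and 2.58 CPM in Controls and 4.17, 2.76 and 3.21 CPM in CBP-ifKOs. Late response genes (LRGs), which are induced after the IEGs and in part by their products, included 8 that fell and 0 that rose of 14 tested (57.1%, median -0.43). They were Bdnf, Nptx2, Vgf, Nrn1, Pcsk1, Rasgrp1, Penk and Pdyn, with log2 fold changes from -0.25 for Rasgrp1 to -1.42 for Pdyn. Bdnf, Nptx2, Penk and Pdyn were named by the study from these or related samples, so this count is not independent evidence of direction. A difference between the lists was not tested.

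Of 12 factors that induce IEGs, 3 fell and 0 rose, beside 6.39% of all genes tested that passed in either direction. These were Srf (log2 fold change -0.44, edgeR adjusted p = 0.029), its coactivator Mrtfa (-0.41, edgeR adjusted p = 0.0102) and Mef2d (-0.43, edgeR adjusted p = 0.0038). Creb1 was at 112.6 ± 7.41 CPM in Controls and 117.2 ± 5.82 CPM in CBP-ifKOs. Of the 7 partners of the encoded proteins, Arnt2, the bHLH-PAS protein with which NPAS4 dimerises in neurons, fell (-0.33, edgeR adjusted p = 0.004), and its relative Arnt rose (0.31, edgeR adjusted p = 0.02). The EGR corepressors Nab1 and Nab2 had log2 fold changes of -0.17 and -0.28 and did not pass. Of 10 proteins that bind or act with ARC, the scaffold Dlg4 fell (-0.43, edgeR adjusted p = 0.0013), and the AMPA receptor subunits Gria1 and Gria2 did not pass.

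**Figure D5:**
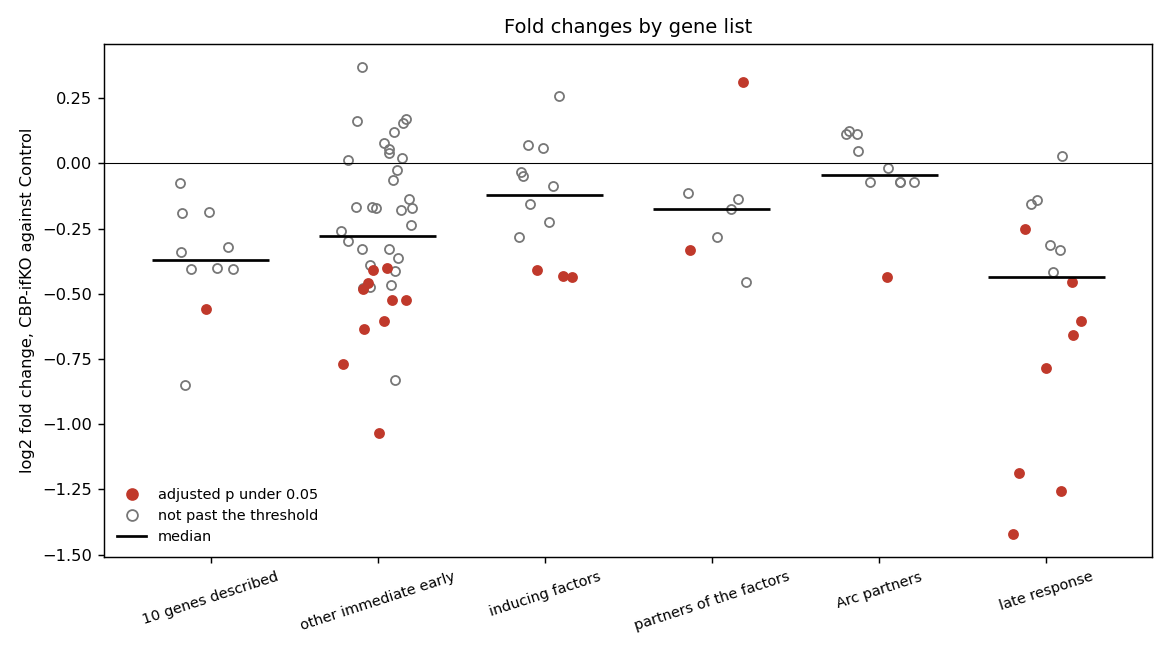
Log2 fold change of every tested gene of 6 lists, with filled points for adjusted p under 0.05 and a line at the median. Of the 10 genes described 1 is filled (Nr4a2), of 40 other IEGs 10 and of 14 LRGs 8, beside 6.39% of all 17981 genes tested. Without Control replicate 2 the numbers were 3, 6 and 9, beside 7.24% of all genes. A difference between the lists was not tested.

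Markers of cell types are given beside these values. Over all genes tested, 6.39% passed with edgeR and 21.2% had an unadjusted p under 0.05. Of 8 markers of excitatory neurons, Nrgn fell (-0.73), with a summed level of 4647 to 5429 CPM in Controls and 4618 to 5197 CPM in CBP-ifKOs. The lowest sum of each group was that of replicate 2. Most of each sum came from Camk2a, whose promoter drives the transgene, and Grin2b, so it says little of the other markers. The mean of Camk2a was 1939 CPM in Controls and 2066 CPM in CBP-ifKOs, and that of Grin2b 2170 and 1892 CPM. Of 6 markers of dentate granule cells, C1ql2 and Tdo2 fell and Lct rose, with a sum of 401.8 to 438.1 CPM in Controls and 441.1 to 487.4 CPM in CBP-ifKOs. Of 8 interneuron markers, Slc32a1 and Sst fell, with sums of 558.1 to 592.7 and 505.4 to 538.2 CPM. Of 36 tested markers of astrocytes, oligodendrocytes, microglia, endothelial cells, blood and choroid plexus, 0 passed with edgeR, DESeq2 or limma-voom, and 8 had an unadjusted p under 0.05. Astrocyte markers summed to 1803 to 1857 CPM in Controls and 1667 to 1752 CPM in CBP-ifKOs, oligodendrocyte markers to 2380 to 2828 and 2449 to 2668, microglial markers to 241.1 to 271.1 and 234.7 to 259.1, and endothelial markers to 116.5 to 128.2 and 101.1 to 136.8. Blood markers reached 189.2 CPM in CBP-ifKO replicate 1, against 59.4 to 99.2 CPM in Controls, and choroid plexus markers 40.4 to 53.4 and 30.8 to 54.7 CPM. Markers of deep cortical layers and subiculum, a list added after values were seen, had 0 of 7 tested past the threshold with edgeR, DESeq2 or limma-voom and 2 at an unadjusted p under 0.05, with sums of 214.1 to 243.7 and 194.7 to 249.1 CPM and Nxph4 at or near 0. The part of cell mixture in the levels of the 10 genes was not tested.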

How the data were processed

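Raw counts per gene were deposited by the authors for 6 hippocampal libraries. Per the labels and the study's methods, single-end reads of 50 bp were trimmed with Trim Galore (version 0.6.4), aligned with STAR (version 2.6.1) to GRCm38, filtered for mapping quality and counted over Ensembl exons with Rsubread, without normalization. Whether counting used strand is not given in the sources used here. Groups and replicate numbers came from the sample titles.

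Symbols and coordinates were taken from GENCODE M21, which matched 99.57% of identifiers. Exon lengths were those deposited with the counts. Counts were tested with edgeR (version 4.0.16, R version 4.3.3), with TMM scaling, filterByExpr (minimum count 10, minimum total 15) and no covariate. Intervals came from the F statistic. Alternatives were limma-voom (limma version 3.58.1) and DESeq2 (version 1.42.0), whose Wald test was the study's choice. The fit was tested on simulated data. GC and length trends were removed per library with natural splines (5 degrees of freedom). No library was a copy of another in its group: chi-square over degrees of freedom was 2.48 or more for every replicate pair within a group. Pairs across groups were not compared in this way. The libraries' depth limits genes near 1 CPM to about 10 counts.

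The 10 genes and all lists were chosen with earlier results of these data known. Named were the 10 genes, genes of the lists past the threshold, Crebbp and Esr1, and the 5 genes nearest in profile, among those of at least 1 CPM whose range over libraries was at least 50% of that of the mean profile. Fos, Creb1, Nab1, Nab2, Gria1, Gria2 and Nxph4 were named after their values were seen. Other alternatives were scaling by RLE, upper quartile or totals, robust dispersions, the filter dropped or raised to 10 counts in all libraries, the replicate number as a block, libraries left out in turn, and an adjusted p under 0.01. A fit without Control replicate 2 and with GC and length trends removed was chosen after seeing the data.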

Additional observations from a re-analysis of the deposited data

How the results depend on the processing

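Of the 10 genes, 1 passed the threshold, beside 1149 of all 17981 genes. The number was 2 with limma-voom (1155 of 17981) and 5 without a filter on low counts (1511 of 35043). It was 0 to 3 with each library left out in turn. There were 0 without CBP-ifKO replicate 2 (498 of 18313) or replicate 3 (526 of 18348), and 3 without Control replicate 2 (1326 of 18313). It was 3 without Control replicate 2 with GC and length trends removed (1544 of 18313), a fit chosen after seeing the data. The number of all genes past the threshold was 1149, and 498 to 1326 with a library left out, and 476 at an adjusted p under 0.01. With library totals as the only scaling, 514 genes were higher and 667 lower, against 252 and 897, and the median of all genes was 0.04. The sign turned for Egr1, Egr4 and Ier2 with GC and length trends removed (0.0591, 0.0207 and 0.0346 on the log2 scale) and for Egr1, Egr4, Ier2 and Nr4a1 with these removed and Control replicate 2 left out (0.0508, 0.454, 0.289 and 0.00913). With a library left out, the log2 fold change ran from -0.28 to 0.14 for Egr1, from -0.67 to 0.19 for Egr4 and from -0.50 to 0.13 for Ier2. The causes were not tested. DESeq2 gave no adjusted p for Egr2, Egr4 and Ier2, and Egr2 and Ier2 were removed by requiring 10 counts in all libraries.

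Libraries with the same replicate number deviated together only weakly (correlations across genes of 0.0769, 0.0369 and 0.00216). The main fit used the numbers as names only. Correlations over all genes cannot show whether some genes share a pairing. With the replicate block, 2 of the 10 genes passed (Nr4a2 and Egr3) and 1210 of all genes, against 1 and 1149 without it. When GC and length trends were removed together with the replicate block, 2 and 1838 passed, against 1 and 1099 without the block. The log2 fold changes of Egr1, Egr4 and Ier2 with both were 0.0427, 0.0539 and 0.0253.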
